A study of Homo sapiens with 4 samples.

Results

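Iron uptake, storage and haem breakdown were followed through 10 genes listed by symbol, of which 9 had a row among the 24940 genes of the count table. They are TFRC, SLC11A2 and SLC11A1 for iron entry, FTH1, FTL and NCOA4 for iron storage, HMOX1 for haem breakdown, and IREB2 and ACO1 for iron sensing. Counts of SLC40A1, the iron exporter ferroportin, were not analysed here. The cells were MOLM-13, a human acute myeloid leukaemia line with a KMT2A fusion, labelled as blood. Each of 4 groups was 1 library: shControl (a negative control hairpin), sh-Bcl2, sh-c-Myc, and sh-c-Myc_sh-Bcl2, which is the double knockdown. All 4 groups, the control included, were labelled with doxycycline induction, and hairpins were delivered by lentivirus with selection in 0.5 µg/ml puromycin or 600 µg/ml G418. The doxycycline time of 72 h is stated for the Western blot. Nothing in the labels says whether a line was a clone, and with 1 library a group the spread between cultures was not measured.

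Cells take up iron mainly as transferrin bound to the transferrin receptor, reduce it in the endosome and move it to the cytosol through a divalent metal transporter. Iron not in use is held inside ferritin, a shell of heavy (FTH1) and light (FTL) chains, and is released when NCOA4 carries ferritin to the lysosome. The iron regulatory proteins encoded by ACO1 and IREB2 bind iron-responsive elements, which are short hairpins in mRNA. In iron-poor cells this protects the TFRC message and blocks translation of the ferritin messages, so much of ferritin control leaves the amount of mRNA as it is. Haem oxygenase 1, encoded by HMOX1, opens the haem ring and frees its iron, and its gene is a known target of the transcription factors NRF2 and BACH1.

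The iron-responsive elements are shown because they are what the TFRC and ferritin messages share at the level of sequence. They were searched in the sense direction of 1 GENCODE 29 transcript per gene. The pattern was a C, 5 bases, the loop CAGTGN and 5 bases pairing with the first 5, with G-T pairs allowed. Pairing below the C was not required. Of 19659 protein-coding genes, 247 (1.26%) held a match, and 4 of the 10 listed genes did: TFRC, FTH1, FTL and SLC40A1. TFRC was the only gene of the 19659 with at least 4 matches. Capitals mark the unpaired C and the first bases of the loop, and positions are on GRCh38. The TFRC matches lie in the 3′ UTR on the minus strand of chromosome 3, the FTH1 match in the 5′ UTR on the minus strand of chromosome 11, and the FTL match in the 5′ UTR on the plus strand of chromosome 19.
TFRC match 1, chr3:196050978-196051007: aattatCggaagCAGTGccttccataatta
TFRC match 2, chr3:196050574-196050603: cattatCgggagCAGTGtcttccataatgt
TFRC match 3, chr3:196050509-196050538: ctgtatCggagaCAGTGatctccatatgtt
TFRC match 4, chr3:196050462-196050491: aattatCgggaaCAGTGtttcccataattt
FTH1, chr11:61967573-61967602: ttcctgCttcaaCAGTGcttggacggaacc
FTL, chr19:48965335-48965364: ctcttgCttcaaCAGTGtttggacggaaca
The 2 ferritin elements carry the same upper stem on the 5′ side of the loop, while the 4 TFRC elements differ there. A match describes the letters of the reference transcript and no binding was measured.

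Libraries held 14421558 to 15691129 counts. MYC was at 434 CPM (counts scaled to library size, with TMM factors) in shControl and 364 in sh-Bcl2, against 278 with sh-c-Myc alone and 302 in the double knockdown. BCL2 was at 120, 38.7, 112 and 44.5 CPM in that order, so both target messages were lower where their hairpin was present, MYC by less than 2-fold. All 8 myeloid leukaemia markers reached 1 CPM in every library, while no erythroid marker did (4 of 11 had a row, with a summed level of 0.0640 to 0.705 CPM). Markers of monocytes and macrophages (17 of 19 with a row) summed to 274 CPM in shControl and 402 in sh-Bcl2, against 1044 with sh-c-Myc alone and 1006 in the double knockdown. The sum therefore moved with the c-Myc hairpin, but not every marker did. Of 11 reaching 1 CPM in a library, 7 were called higher in sh-c-Myc than in shControl by the rule below (12.7% of all genes). None was called lower there (9.8% of all genes). CD163 was lowest in sh-c-Myc (1.14, 1.39, 0.577 and 1.98 CPM in the same order). C1QA, MRC1, MSR1 or CD68 stood at 0 in at least 1 library each. The 2 lymphoid markers with a row summed to 2.06 to 5.13 CPM.

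Ratios between libraries are given as log2 ratios of scaled counts with 95% intervals from the exact binomial distribution of the pair of counts, so they hold counting error alone. Calls needed a 2-fold ratio or more, an interval that left out no change, and 1 CPM in a library. In addition, the 4 libraries were fitted together with edgeR as 1 term per hairpin, which sets 2 libraries with a hairpin against 2 without it. That fit has 1 residual degree of freedom, where library spread and any non-additive effect are held together, and its p-values (Benjamini-Hochberg adjusted over 12885 genes) are read with that limit.

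**Figure D1:**
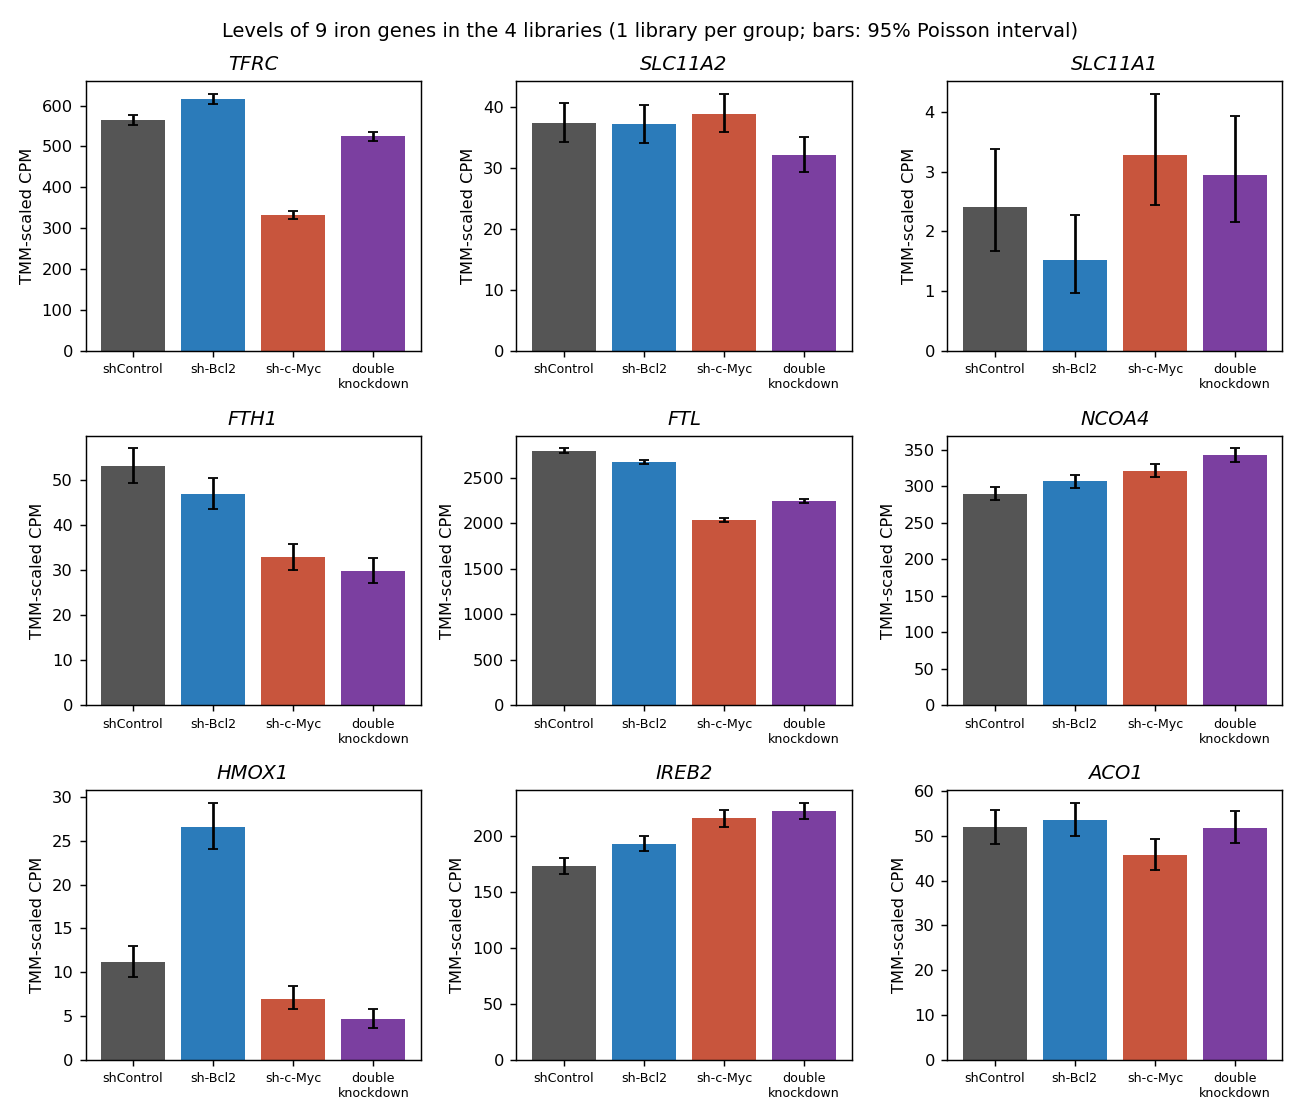
Level of each measured iron gene in the 4 libraries, in TMM-scaled CPM on axes that start at 0; each bar is 1 library and each line its 95% Poisson interval. HMOX1 is highest in sh-Bcl2 at 26.6 CPM and lowest in the double knockdown at 4.61, and TFRC is lowest in sh-c-Myc at 332.7.

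HMOX1 was the member that moved furthest, and it moved in opposite directions when BCL2 was depleted with and without the c-Myc hairpin. HMOX1 (ENSG00000100292, plus strand of chromosome 22, 35380361 to 35394214) had 157 counts in shControl and 403 in sh-Bcl2, against 109 with sh-c-Myc alone and 72 in the double knockdown. In scaled units these are 11.1, 26.6, 6.99 and 4.61 CPM, with Poisson intervals of 9.47 to 13.0, 24.1 to 29.4, 5.74 to 8.43 and 3.60 to 5.80. The sh-Bcl2 library was the highest and shControl the second highest, and neither interval overlapped another, while those of sh-c-Myc and the double knockdown just met.

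Against shControl, HMOX1 was 2.38-fold higher in sh-Bcl2 (interval 1.98 to 2.89). It was 1.59-fold lower in sh-c-Myc (log2 ratio -0.67, interval -1.04 to -0.31) and 2.41-fold lower in the double knockdown (1.82 to 3.24). The 3 comparisons share the shControl library. The double knockdown was 5.75-fold lower than sh-Bcl2 (4.49 to 7.54) and 1.51-fold lower than sh-c-Myc (1.12 to 2.07). The Bcl-2 hairpin thus went with more HMOX1 message alone and with less beside the c-Myc hairpin. The double knockdown lay 1.85 below the sum of both single log2 ratios (departure -1.85, interval -2.36 to -1.35), the 7th lowest departure of the 9511 genes with at least 10 CPM in a library. Among the 798 genes called lower for the departure at any level it ranked 338.

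HMOX1 was the 1 member of 9 called in sh-Bcl2 against shControl (higher), where 4.61% of all 13726 genes were called, 2.46% higher and 2.16% lower. It was likewise the 1 member of 9 called lower in the double knockdown against shControl, where 13.1% of all genes were called, 7.11% higher and 5.95% lower. Against sh-Bcl2 it was again the 1 member called lower in the double knockdown (8.8% of all genes called, 3.61% lower). The same held for the departure from additivity (8.84% of all genes called, 5.81% lower). No member of 9 was called in sh-c-Myc against shControl, where 22.5% of all genes were called. None was called between the double knockdown and the sh-c-Myc library either, where 6.51% were. Over the 9 members the median log2 ratio to the control library was 0.04 for sh-Bcl2, -0.18 for sh-c-Myc and -0.11 for the double knockdown, beside 0.00, -0.02 and -0.01 over all genes. The other 8 members had ratios under 2-fold in these comparisons, but the intervals of SLC11A1 reached past it, to 2.82-fold lower in sh-Bcl2 than in shControl.

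In the additive fit, HMOX1 fell with the c-Myc hairpin by 1.60 on the log2 scale (SE 0.37, edgeR adjusted p = 0.0099541). That single value stands for -0.67 without the Bcl-2 hairpin and -2.52 with it. For the Bcl-2 hairpin the fitted value was 0.42 (SE 0.37, edgeR adjusted p = 0.80029), in place of 1.25 without and -0.60 with the c-Myc hairpin. Across genes, log2 ratios of sh-Bcl2 to shControl correlated with transcript GC content (Spearman's rho -0.35 over 10739 genes, which share 2 libraries), and HMOX1 is 58.1% GC. With that trend removed its ratio was 1.41 in place of 1.25. HMOX1 is strongly expressed by macrophages. The summed monocyte and macrophage markers were at 274 CPM in shControl and 402 in sh-Bcl2, where HMOX1 was highest. They were at 1044 with sh-c-Myc alone and 1006 in the double knockdown, where HMOX1 was lowest. Of the 11 markers reaching 1 CPM in a library, 3 were called higher in sh-Bcl2 than in shControl (LYZ, S100A8 and CD209). A further 1, MARCO, was called lower. Over all genes these shares were 2.46% and 2.16%. Of the same 11 markers, 7 were called higher in the double knockdown than in sh-Bcl2 and 0 were called lower. Of all 13726 genes, 713 and 495 were. A few listed markers, picked after their values were seen, were scarce in both sh-Bcl2 and the double knockdown. CD68 was at 0 and 0.128 CPM in that order, MRC1 at 0 in both and CD163 at 1.39 and 1.98. The part of macrophages in the HMOX1 result was not tested. In these bulk libraries, fewer cells of a type and less RNA per cell cannot be told apart.

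**Figure D2:**
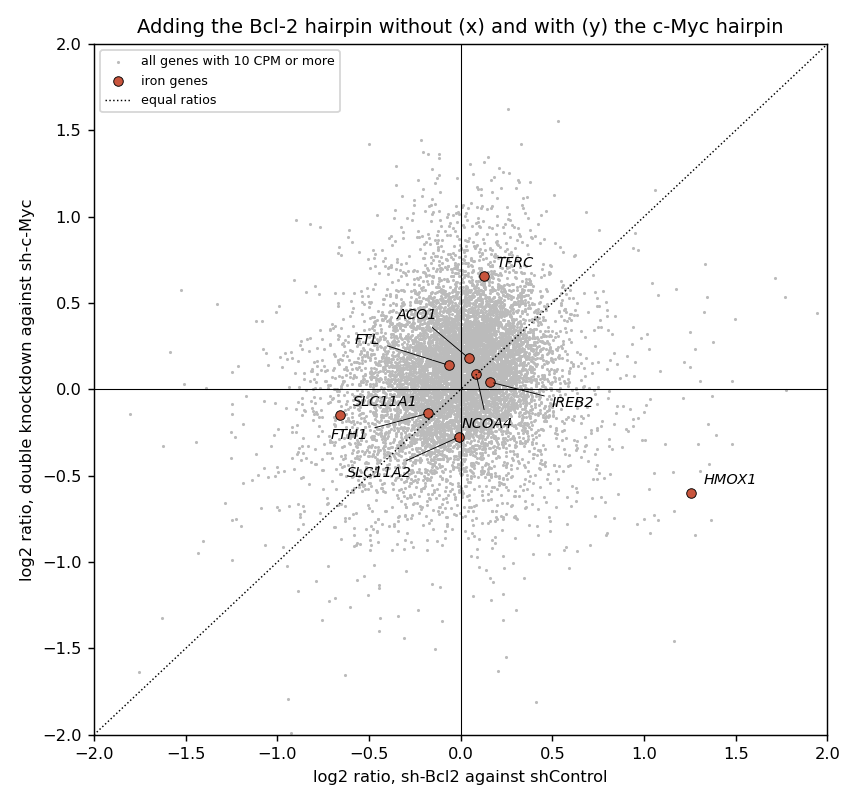
Log2 ratio that goes with adding the Bcl-2 hairpin, without the c-Myc hairpin (x axis, sh-Bcl2 against shControl) and with it (y axis, the double knockdown over the sh-c-Myc library); grey points are 9505 genes with at least 10 CPM in a library (6 more lie outside the axes) and red points the 9 iron genes. HMOX1 sits at 1.25 and -0.60, away from the dotted line of equal ratios, and TFRC at 0.13 and 0.66.

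Among the 9511 genes with at least 10 CPM in a library, the nearest to HMOX1 by the distance between 3 log2 ratios to shControl were FAM86DP (distance 0.99), IL7R (1.04) and PEX3 (1.09). Counted after the values were seen, 2 genes of the table were called both higher in sh-Bcl2 and lower in the double knockdown than in shControl: HMOX1 and RPGRIP1.

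TFRC, the transferrin receptor that brings in most iron, was lowest in sh-c-Myc and near the control level in the double knockdown. TFRC (ENSG00000072274, minus strand of chromosome 3, 196027183 to 196082189) stood at 564.9 CPM in shControl and 616.1 in sh-Bcl2, against 332.7 with sh-c-Myc alone and 524.8 in the double knockdown. The sh-c-Myc library was apart from the others, and no 2 counting intervals overlapped. Against shControl, TFRC was 1.70-fold lower in sh-c-Myc (interval 1.64 to 1.76), with log2 ratios of -0.11 in the double knockdown and 0.13 in sh-Bcl2. The double knockdown was 1.58-fold higher than sh-c-Myc (1.52 to 1.63), and the departure from additivity was 0.53 (interval 0.47 to 0.60). None of these reached 2-fold. The additive fit gave -0.50 for the c-Myc hairpin (SE 0.20, edgeR adjusted p = 0.085188) and 0.39 for the Bcl-2 hairpin (SE 0.19, edgeR adjusted p = 0.68772), so neither passed. With every gene that had a count in the fit, the first had an edgeR adjusted p of 0.038326 instead. Closest to TFRC in pattern were ITGB3BP (distance 0.04), WDR77 (0.04) and TMEM126A (0.06).

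SLC11A2, also known as DMT1, which passes endosomal iron to the cytosol, stayed within a narrow range. It was at 37.3 CPM in shControl and 37.1 in sh-Bcl2, against 38.9 with sh-c-Myc alone and 32.1 in the double knockdown. The double knockdown was the lowest, with a log2 ratio to sh-c-Myc of -0.28 (interval -0.45 to -0.10), and all Poisson intervals overlapped but those of these 2 libraries.

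SLC11A1, known as NRAMP1, the related transporter of phagocyte vesicles, was the scarcest member. Its 34 counts in shControl and 23 in sh-Bcl2, against 51 with sh-c-Myc alone and 46 in the double knockdown came to 2.41, 1.52, 3.27 and 2.94 CPM. The libraries with the c-Myc hairpin were the 2 highest, but every ratio to shControl had an interval that included no change (log2 0.43, interval -0.22 to 1.11, in sh-c-Myc). The double knockdown lay above sh-Bcl2 by 0.94 (interval 0.20 to 1.74), short of 2-fold. In the additive fit the c-Myc term was 0.68 (SE 0.43, edgeR adjusted p = 0.27534). The summed monocyte and macrophage markers were higher in the same 2 libraries, and the part of such cells in this was not tested. The nearest patterns were those of CCNG2 (distance 0.10), NPC2 (0.13) and DDAH2 (0.13).

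Both ferritin chains were lower where the c-Myc hairpin was present. FTL (ENSG00000087086, plus strand of chromosome 19, 48965301 to 48966878), the light chain, was at 2799 CPM in shControl and 2677 in sh-Bcl2, against 2039 with sh-c-Myc alone and 2246 in the double knockdown. Both libraries with the c-Myc hairpin were below both without it, with no overlap of counting intervals. FTL was 1.37-fold lower in sh-c-Myc and 1.25-fold lower in the double knockdown than in shControl (log2 ratios -0.46 and -0.32). The additive fit gave -0.35 for the c-Myc hairpin (SE 0.25), which did not pass (edgeR adjusted p = 0.32568). With the Bcl-2 hairpin FTL was slightly lower alone (-0.06, interval -0.08 to -0.04) and slightly higher beside the c-Myc hairpin (0.14, interval 0.12 to 0.16). The first direction depended on the processing: with the GC and length trend removed it was 0.10 (interval 0.08 to 0.12), and with upper quartile factors its interval included no change (-0.01, interval -0.03 to 0.01).

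FTH1 (ENSG00000167996, minus strand of chromosome 11, 61959718 to 61967660), the heavy chain that oxidises iron for storage, was at 53.1 CPM in shControl and 46.9 in sh-Bcl2, against 32.9 with sh-c-Myc alone and 29.9 in the double knockdown. Again the 2 libraries with the c-Myc hairpin were the lowest, and their intervals did not overlap those of the 2 without it. FTH1 was 1.61-fold lower in sh-c-Myc and 1.78-fold lower in the double knockdown than in shControl. In the additive fit it fell with the c-Myc hairpin by 0.67 (SE 0.17, edgeR adjusted p = 0.014057). With DESeq2 the same effect just missed the threshold (adjusted p = 0.051215). The 2 effects of the c-Myc hairpin were near equal, -0.69 without and -0.65 with the Bcl-2 hairpin. Genes most like it in pattern were ZNF202 (distance 0.02), ZXDB (0.07) and RFXAP (0.07).

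FTH1 counts are uncertain. In GENCODE 29, 62.4% of the exonic bases of FTH1 lie also in BEST1 on the opposite strand, and whether reads were counted by strand is not stated in the notes used. BEST1 was at 5.54, 7.53, 12.4 and 9.21 CPM in shControl, sh-Bcl2, sh-c-Myc and the double knockdown, in the opposite order to FTH1 between groups with and without the c-Myc hairpin. Of the 50-base windows in the FTH1 transcript, 40.4% occur also in a pseudogene, against 18.3% for FTL, 5.51% for NCOA4 and under 1% for each other member. With 100-base windows the shares were 20.2% for FTH1, 3.34% for FTL and 0 for NCOA4. Counts assigned to FTH1 pseudogenes were few (4, 11, 23 and 16 in the same order), as were those of FTL pseudogenes (3, 11, 1 and 1). Per length, FTL exceeded FTH1 by 122-fold in shControl and 132-fold in sh-Bcl2, against 143-fold with sh-c-Myc alone and 174-fold in the double knockdown, in deposited FPKM, and this ratio carries the same uncertainty.

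NCOA4, the receptor that delivers ferritin for breakdown, was a little above the control level in each knockdown library. It was at 289.5 CPM in shControl and 306.8 in sh-Bcl2, against 321.4 with sh-c-Myc alone and 342.4 in the double knockdown. The double knockdown was highest, at a log2 ratio of 0.24 to shControl (interval 0.18 to 0.30), and the additive fit gave 0.15 for the c-Myc hairpin (SE 0.16, edgeR adjusted p = 0.52785).

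Of the sensors, IREB2 (iron regulatory protein 2, degraded when iron is plentiful) was somewhat higher in the knockdown libraries. Its levels were 172.7 CPM in shControl and 193.0 in sh-Bcl2, against 215.3 with sh-c-Myc alone and 221.8 in the double knockdown. The 2 libraries with the c-Myc hairpin overlapped each other and lay above the other two. Relative to shControl it was higher by 0.32 in sh-c-Myc (interval 0.24 to 0.39) and 0.36 for the double knockdown on the log2 scale, and the additive fit did not pass (0.26, SE 0.16, edgeR adjusted p = 0.24903). ACO1 (iron regulatory protein 1, an aconitase when it carries its iron-sulphur cluster) was at 52.0, 53.6, 45.7 and 51.8 CPM in shControl, sh-Bcl2, sh-c-Myc and the double knockdown. These intervals overlapped except between sh-Bcl2 and sh-c-Myc, and the sign of its ratio in sh-c-Myc (-0.18) was lost with total counts as the scale (0.00).

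**Figure D3:**
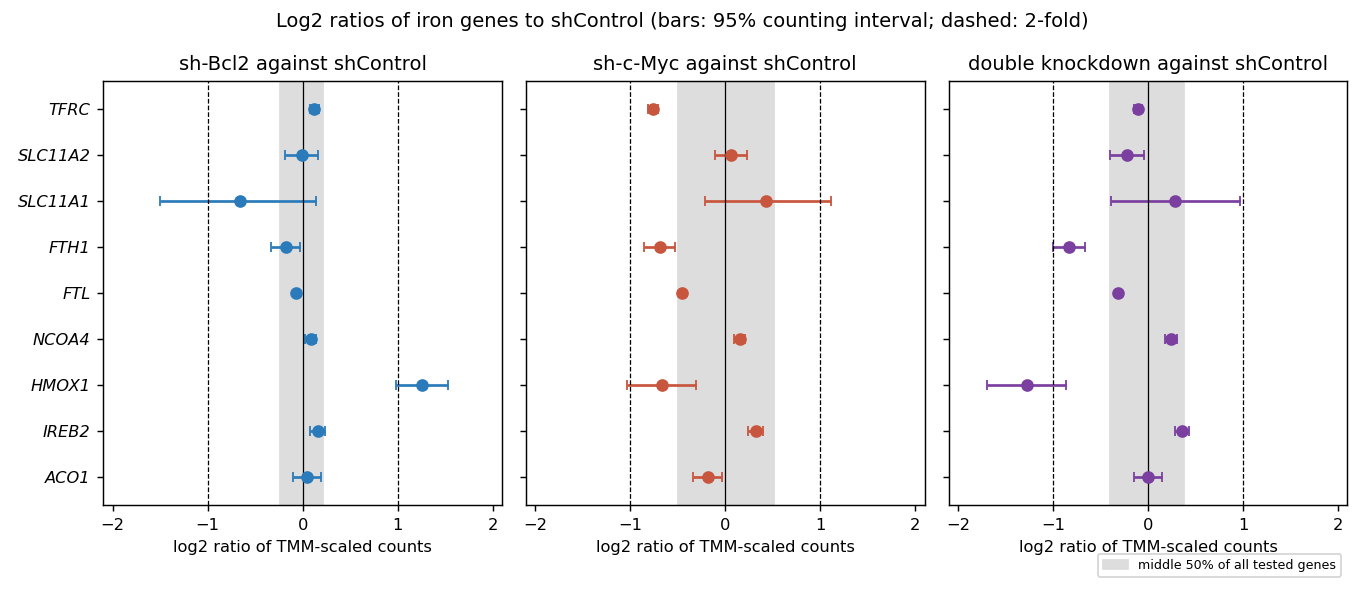
Log2 ratio of each iron gene to shControl in the 3 knockdown libraries; points are TMM-scaled count ratios, bars 95% counting intervals, dashed lines 2-fold, and the grey band the middle of all 13726 genes from the lower to the upper quartile. HMOX1 is past 2-fold in sh-Bcl2 (1.25) and in the double knockdown (-1.27), while TFRC and FTH1 reach -0.76 and -0.69 in sh-c-Myc.

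Over the 9 members, 2 fell with the c-Myc hairpin in the additive fit (HMOX1 and FTH1) and 0 rose, where 23.4% of all genes passed, 9.2% higher and 14.2% lower. MYC itself did not pass for that hairpin (-0.46, SE 0.18, edgeR adjusted p = 0.079246). BCL2 passed for the Bcl-2 hairpin (-1.48, SE 0.17, edgeR adjusted p = 0.0054985). For the Bcl-2 hairpin 0 of 9 passed with edgeR, DESeq2 or limma-voom, where 0.0388% of all genes passed with edgeR. At an unadjusted p under 0.05 the Bcl-2 hairpin had 0 of 9 with edgeR, 0 with DESeq2 and 1 with limma-voom. Over all 12885 genes these numbers were 967, 409 and 985.

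Per length, in deposited FPKM, FTL was the most abundant member in all 4 libraries and SLC11A1 the least. In shControl FTL was at 3029.5 FPKM, TFRC at 68.1, NCOA4 at 67.5, FTH1 at 24.9, IREB2 at 15.2, ACO1 at 6.54, HMOX1 at 4.40, SLC11A2 at 3.50 and SLC11A1 at 0.264. In that order the intervals of TFRC and NCOA4 overlapped, as did those of HMOX1 and SLC11A2. TFRC at 45.6 FPKM with sh-c-Myc alone and 67.1 in the double knockdown was below NCOA4 at 85.2 and 84.7 there, without overlap. In the same libraries IREB2 at 21.5 and 20.7 passed FTH1 at 17.5 and 14.8. The place of FTH1 in each order carries the uncertainty of its counts given above. HMOX1 stood above ACO1 in sh-Bcl2 at 10.7 against 6.84 FPKM, and below SLC11A2 with sh-c-Myc alone (3.14 against 4.14) and in the double knockdown (1.93 against 3.19).

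The wider pathway was taken from 8 lists of 91 other genes of iron and haem handling, of which 67 reached 1 CPM. In sh-c-Myc against shControl 3 of the 67 were called higher and 13 lower (median log2 ratio -0.39), beside 12.7% and 9.8% of all genes. In the double knockdown 2 were higher and 5 lower (median -0.30), beside 7.11% and 5.95% of all genes. In sh-Bcl2 0 were higher and 2 lower (median -0.07), beside 2.46% and 2.16%. The additive fit had 66 of these genes. With the c-Myc hairpin 3 rose (CYBRD1, EPAS1 and, outside the naming rule and picked after its values were seen, FBXL5) and 18 fell. Over all genes 9.2% rose and 14.2% fell. With the Bcl-2 hairpin 0 of the 66 passed with edgeR, DESeq2 or limma-voom. An unadjusted edgeR p under 0.05 was found for 3 of them, beside 967 of all 12885 genes.

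The lists for mitochondrial iron import and iron-sulphur assembly and for cytosolic iron-sulphur assembly held 19 and 9 of the 67 genes. They held 6 and 1 of the 13 called lower in sh-c-Myc, where 9.8% of all genes were called lower. In the first list, 0 were called higher there, beside 12.7% of all genes (list median -0.62, against -0.02 over all genes). In the double knockdown none of the 19 was called, where 13.1% of all genes were, with a list median of -0.53. BOLA3, a late-acting cluster assembly factor, was at 22.2 CPM in shControl and 21.6 in sh-Bcl2, against 5.71 with sh-c-Myc alone and 11.5 in the double knockdown. ABCB10, a mitochondrial transporter needed for haem synthesis, was at 490.6, 456.2, 192.7 and 275.6 in that order. The glutaredoxin GLRX5 (55.0, 44.9, 24.6 and 30.2 CPM) and the chaperone HSPA9 (642.8, 616.1, 292.1 and 390.8 CPM) had the same order of libraries: lowest in sh-c-Myc, then the double knockdown. In the additive fit 7 of 19 fell with the c-Myc hairpin and 0 rose, beside 14.2% and 9.2% of all genes. Of 9 cytosolic assembly genes 1 was called lower in sh-c-Myc, CIAO2B, which hands clusters to target proteins (39.3, 27.2, 16.6 and 20.1 CPM). In the additive fit 3 of these 9 fell with the c-Myc hairpin and 0 rose.

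The NRF2 and BACH1 list holds those factors, their partners and other targets. In sh-Bcl2 0 of its 13 genes were called (4.61% of all genes), with a median of -0.03. Lower calls numbered 3 in sh-c-Myc (9.8% of all genes) and 2 for the double knockdown (5.95%). The quinone reductase NQO1 was at 58.1 CPM in shControl and 44.9 in sh-Bcl2, against 13.4 with sh-c-Myc alone and 17.2 in the double knockdown, 4.32-fold lower in sh-c-Myc (interval 3.72 to 5.07). The malic enzyme ME1 was at 27.3, 14.4, 10.6 and 9.15 CPM, and the thioredoxin reductase TXNRD1 at 404.5, 381.8, 198.8 and 241.1. All 3 were thus highest in shControl, but they were named for their sh-c-Myc ratios and not every gene of the list followed. GCLM, picked after its values were seen, was highest in sh-Bcl2 (78.9, 108.8, 55.8 and 77.8 CPM in the same order), where it was not called. MAFF and SLC7A11 were also highest there. The factor genes NFE2L2 (72.6, 94.6, 80.7 and 96.6 CPM) and BACH1 (47.1, 64.3, 81.6 and 69.3 CPM) stood above shControl in each knockdown library. Their part in the HMOX1 result was not tested.

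Near the haem and uptake members, HMOX2, the constitutive haem oxygenase, was at 41.3 CPM in shControl and 31.2 in sh-Bcl2, against 16.5 with sh-c-Myc alone and 18.6 in the double knockdown. It was thus 2.50-fold lower in sh-c-Myc (interval 2.16 to 2.91) and, unlike HMOX1, lower in sh-Bcl2 than in shControl. STEAP3, the endosomal ferrireductase that works with TFRC, was at 23.1, 19.6, 7.95 and 11.3 CPM, called lower with sh-c-Myc and with the double knockdown. CYBRD1, a surface ferrireductase, went the other way, at 48.8, 44.4, 108.7 and 83.5 CPM. HP, the haemoglobin-binding haptoglobin, was called higher with sh-c-Myc and with the double knockdown from 2 counts in shControl, with an interval of 2.32 to 83.5 for its 7.77-fold ratio in sh-c-Myc. ERFE, a hormone that lowers hepcidin, was scarce at 2.41, 0.727, 0.321 and 0.576 CPM. It was called lower than shControl in each knockdown library, on 34, 11, 5 and 9 counts. ERFE and TFR2, also scarce, were the 2 pathway genes called lower in sh-Bcl2. EPAS1, whose message carries an iron-responsive element, rose with the c-Myc hairpin, from 1.42 CPM in shControl and 1.26 in sh-Bcl2 to 3.78 and 5.95 in sh-c-Myc and the double knockdown.

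**Figure D4:**
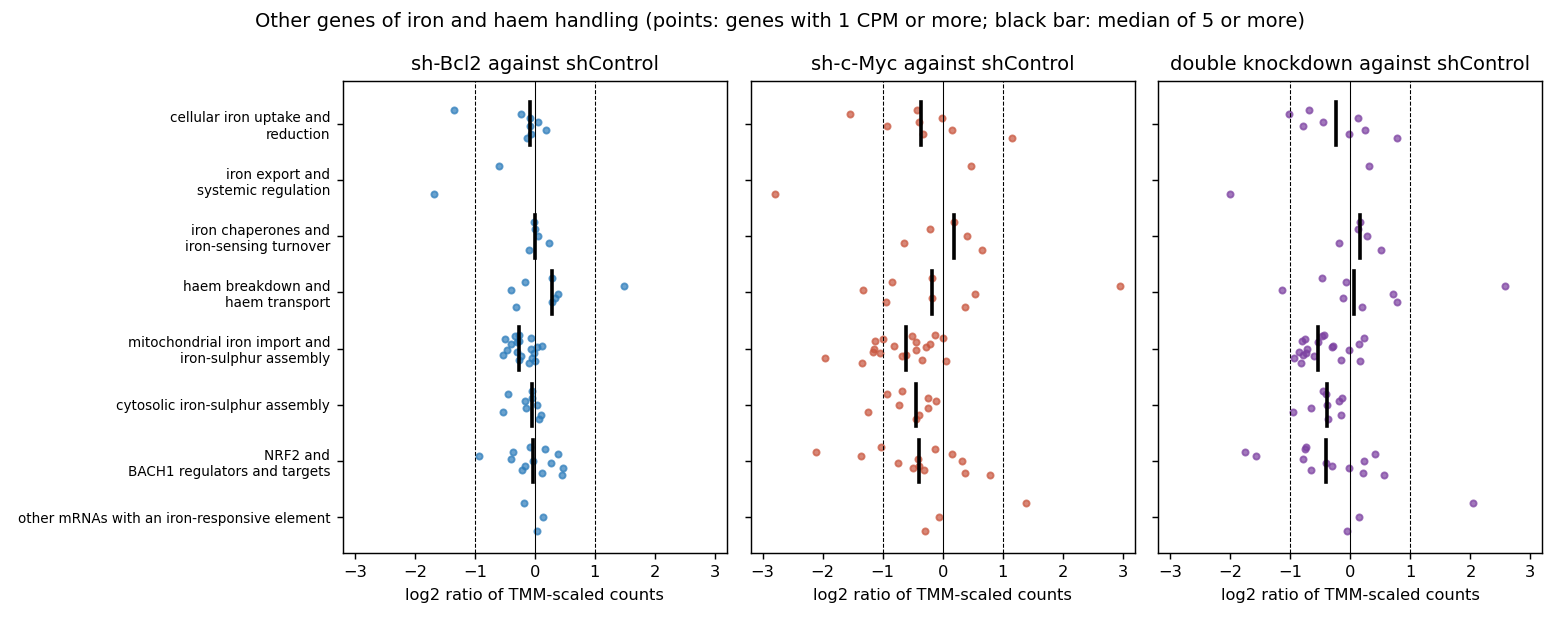
Log2 ratios to shControl of the other genes of iron and haem handling by list, in the 3 knockdown libraries; each point is a gene with at least 1 CPM in a library, black bars are medians of lists with at least 5 such genes, and dashed lines mark 2-fold. The bar for mitochondrial iron import and iron-sulphur assembly sits at -0.62 with sh-c-Myc alone and -0.53 in the double knockdown.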

How the data were processed

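RNA-seq of 4 MOLM-13 libraries, 1 per group, was used. Per the submitters' processing notes reads were aligned to GRCh38 with HISAT2 and counted with HTSeq 0.13.5; the annotation release and strand setting are not stated there. The authors deposited whole-number counts per gene and FPKM values, in which gene lengths recovered from counts were whole within 0.01 base for 100% of 48681 values. The members and lists were chosen with earlier results of these data known.

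Ratios used TMM-scaled counts (factors 0.950, 0.965, 1.08 and 1.01 for shControl, sh-Bcl2, sh-c-Myc and the double knockdown; prior count 0.5) over 13726 genes with at least 1 CPM in a library. Levels carry exact Poisson 95% intervals. The departure from additivity is the double log2 ratio minus both single ones, with a delta-method interval. The additive fit used edgeR 4.0.16 (quasi-likelihood, TMM and totals of the whole table, genes reaching 1 CPM in 2 or more libraries) and had a common dispersion of 0.0221; this scaling was kept over factors after filtering with both results seen. DESeq2 1.42.0 and limma 3.58.1 were alternatives. The p-values rest on 1 residual degree of freedom, which mixes library spread with non-additive effects. They also draw on dispersion shared across genes (edgeR prior degrees of freedom 11.08), and do not measure the spread between cultures. Both methods were tested on simulated data.

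Named genes were the members, MYC, BCL2, up to 4 genes per list with the largest sh-c-Myc ratio among those called there or in the double knockdown, and the 3 nearest patterns for TFRC, HMOX1, SLC11A1 and FTH1. Marker lists were 4. BEST1, RPGRIP1, FBXL5, GCLM and the single values of CD163, CD68 and MRC1 were added after values were seen. So were MAFF, SLC7A11, NFE2L2, BACH1, TFR2 and the names of called markers. Sequences come from GENCODE 29 transcripts.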

Additional observations from a re-analysis of the deposited data

Results flagged for a closer look

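For each of HMOX1 and FTL, the Bcl-2 hairpin went with a higher level in one background and a lower level in the other (without and with the c-Myc hairpin), with both counting intervals excluding no change. HMOX1 had a log2 ratio of 1.25 without the c-Myc hairpin (interval 0.99 to 1.53) and -0.60 with it (interval -1.05 to -0.16). FTL, the ferritin light chain, had -0.06 without it (interval -0.08 to -0.04) and 0.14 with it (interval 0.12 to 0.16). With the GC and length trend removed, HMOX1 stayed opposite (1.41 and -0.51), while FTL was higher in both backgrounds (0.10 and 0.22). With upper quartile factors the FTL interval without the c-Myc hairpin included no change (-0.01). With 1 library per group the difference was not tested for either gene, and the intervals cover counting error only.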

How the results depend on the processing

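No paired analysis was possible because each group holds 1 library. HMOX1 kept its call in sh-Bcl2 against shControl, in the double knockdown against sh-Bcl2 and for the departure under all 9 alternatives, and in the double knockdown against shControl under all but FPKM plus 1, which left 0 members called there (HMOX1 at -0.88). At 1.5-fold in place of 2-fold, 3 members were called in sh-c-Myc against shControl (TFRC, FTH1 and HMOX1, lower), 2 in the double knockdown against shControl (FTH1 and HMOX1, lower), 2 against sh-c-Myc (TFRC higher, HMOX1 lower) and 3 against sh-Bcl2 (SLC11A1 higher, FTH1 and HMOX1 lower). Of all 13726 genes, the 1.5-fold threshold called 2737 higher and 2802 lower in sh-c-Myc, and 1833 and 2030 in the double knockdown, against shControl. For the double knockdown it called 813 higher and 1262 lower against sh-c-Myc, and 1459 and 1444 against sh-Bcl2. Total counts gave 2 members in the double knockdown against sh-Bcl2 (SLC11A1 added, at 1.00), beside 831 higher and 407 lower over all genes. DESeq2 left 1 member for the c-Myc hairpin (HMOX1), and FTH1 had adjusted p-values of 0.0051640 to 0.051215 over the 6 alternatives, 1 of which (TMM factors after filtering) was chosen after seeing the data. HMOX1 passed under all 6, with adjusted p-values of 2.819e-08 to 0.0093088. The cause was not tested. Of single values, 83 moved, 507 did not, 1 lost the threshold (FTH1 with DESeq2) and 1 gained it (TFRC with all genes that had a count), and no called value changed sign. The 507 include all log2 ratios under the 1.5-fold, 50-count and no-filter settings. Those settings change calls alone and leave each ratio identical, so these values could not move and the tally does not measure stability. Scaling shifts the centre: the median log2 ratio in sh-c-Myc over genes averaging 50 counts or more was -0.10 with TMM and 0.08 with total counts, and genes called there were 1744 higher and 1345 lower against 2227 and 911. For the double knockdown against shControl these were 976 and 817 against 1159 and 653. In the c-Myc fit 1186 genes rose and 1835 fell, against 2176 and 1812 with upper quartile factors. The Bcl-2 fit called 5 genes, against 111 with those factors, 58 with all genes that had a count, 41 with factors after filtering, 13 with DESeq2, 3 with limma-voom and 3 at 10 CPM. Depth limits SLC11A1 most, at 23 to 51 counts.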
